A study of Arabidopsis thaliana with 12 samples.

Results

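The genes described here are 10 Arabidopsis genes of the unfolded protein response and of protein folding and export in the endoplasmic reticulum (ER), out of 25424 genes in the count table. They are the ER chaperone genes BIP1 (AT5G28540), BIP2 (AT5G42020) and BIP3 (AT1G09080), the J-domain co-chaperone gene ATERDJ3A (AT3G08970), the calnexin gene CNX1 (AT5G61790), the disulfide-forming genes ERO1 (AT1G72280) and PDIL2-3 (AT2G32920), the transcription factor gene BZIP60 (AT1G42990), and the vesicle coat genes SARA1A (AT1G09180) and AT1G18830. They were taken by locus, and several of them were picked because their levels were higher in the mutant at both humidities. Differences between mutant and wild type are therefore given for these 10 as descriptions, with no test, while their response to humidity was tested.

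RNA was sequenced from dissected inflorescence meristems in 12 libraries, 3 in each of 4 groups: pip2 at high humidity, pip2 at low humidity, col0 at high humidity and col0 at low humidity. The mutant is called pip2 here, pip2d in the sample titles and pip2;5 in the design text. PIP2;5 (AT3G54820) encodes a plasma membrane aquaporin, and col0 is the wild-type accession Columbia. The allele, plant age, humidity values and durations are not given in the sources used here. Nothing says whether replicates came from separate plants or pools, and the p-values below reflect only how far these libraries spread, which can be technical.

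Library totals ran between 17850187 and 28445060 counts. PIP2;5 had 0.726, 1.09 and 1.07 CPM (counts scaled to library size) in pip2 at high humidity and 1.18, 0.623 and 0.548 CPM in pip2 at low humidity, against 50.8, 49.4 and 52.1 CPM in col0 at high humidity and 70.4, 71.7 and 70.0 CPM in col0 at low humidity. The 6 mutant libraries thus stood apart from the 6 wild-type libraries in the gene the labels name. All 6 meristem and young flower markers measured were at 1 CPM or more in every group, and their summed level was 328 to 352 CPM in pip2 at high humidity, 345 to 362 CPM in pip2 at low humidity, 334 to 359 CPM in col0 at high humidity and 311 to 334 CPM in col0 at low humidity. CLV3, which marks meristem stem cells, was not analysed here.

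Proteins bound for secretion fold inside the ER, where BiP chaperones, calnexin and disulfide-forming enzymes act on them. When unfolded proteins build up, sensors in the ER membrane turn on a set of genes called the unfolded protein response. In plants the RNase IRE1 splices the BZIP60 messenger RNA, and the membrane-bound factors bZIP17 and bZIP28 are cut to release active transcription factors. Their known DNA motifs include the ER stress response elements ERSE and ERSE-II and the unfolded protein response element UPRE. The response raises folding helpers, the degradation machinery for misfolded proteins and the COPII coat that carries cargo from the ER. In Arabidopsis, BIP3 is widely used as a marker of this response because it is nearly silent without ER stress.

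Promoter sequences of 4 genes are shown as examples of genes that were higher in the mutant and hold a motif upstream of their start. The matches of BI1, AT1G29310 and Hrd1B, which also differed between genotypes, are given in the map of motif positions only. BIP3 and AT1G18830 are among the 10 genes. PDIL1-2 (AT1G77510), a protein disulfide isomerase gene, and AT3G60540, a gene for a Sec61 beta subunit of the translocation channel, belong to a wider list of ER genes described further on. Each line gives the 300 bases before the annotated start, 5′ to 3′ on the gene's own strand, read from the RefSeq annotation of TAIR10.1. The submitters' processing notes name TAIR10, and the deposited tables hold no coordinates. Capitals mark matches to ERSE or UPRE on either strand. The windows lie at chr1:2931851-2932150 on the minus strand for BIP3, chr1:6488933-6489232 on the plus strand for AT1G18830, chr1:29126348-29126647 on the plus strand for PDIL1-2 and chr3:22375917-22376216 on the minus strand for AT3G60540.
BIP3: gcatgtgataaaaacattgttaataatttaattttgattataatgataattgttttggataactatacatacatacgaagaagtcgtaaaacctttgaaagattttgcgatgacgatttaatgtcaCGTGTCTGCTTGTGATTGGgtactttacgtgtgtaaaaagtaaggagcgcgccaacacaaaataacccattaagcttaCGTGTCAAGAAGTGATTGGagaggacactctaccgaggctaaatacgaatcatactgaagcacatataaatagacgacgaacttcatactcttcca
AT1G18830: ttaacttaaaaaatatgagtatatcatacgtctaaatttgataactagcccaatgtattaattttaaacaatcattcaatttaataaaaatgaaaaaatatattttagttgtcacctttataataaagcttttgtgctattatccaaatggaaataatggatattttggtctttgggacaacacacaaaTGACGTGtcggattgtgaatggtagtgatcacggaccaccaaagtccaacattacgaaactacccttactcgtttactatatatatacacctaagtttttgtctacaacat
PDIL1-2: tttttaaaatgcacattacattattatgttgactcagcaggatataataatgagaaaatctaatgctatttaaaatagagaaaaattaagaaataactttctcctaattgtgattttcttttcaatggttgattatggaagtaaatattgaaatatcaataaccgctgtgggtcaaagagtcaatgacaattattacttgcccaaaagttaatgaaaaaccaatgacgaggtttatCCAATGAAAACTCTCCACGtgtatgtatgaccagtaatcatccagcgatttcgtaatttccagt
AT3G60540: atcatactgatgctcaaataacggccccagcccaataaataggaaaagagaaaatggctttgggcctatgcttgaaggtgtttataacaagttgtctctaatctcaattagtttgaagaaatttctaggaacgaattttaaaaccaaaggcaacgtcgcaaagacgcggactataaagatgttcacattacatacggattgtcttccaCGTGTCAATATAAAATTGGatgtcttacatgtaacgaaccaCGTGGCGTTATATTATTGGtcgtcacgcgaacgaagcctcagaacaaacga

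BIP3 was the chaperone gene that stood out. BIP proteins are HSP70-type chaperones of the ER lumen. BIP3 had 14.2, 16.9 and 17.1 CPM in pip2 at high humidity, against 1.62, 2.19 and 0.725 CPM in col0 at high humidity. In pip2 at low humidity it had 31.0, 34.7 and 29.4 CPM, against 1.42, 0.514 and 0.750 CPM in col0 at low humidity. Every mutant library lay above every wild-type library, with mean levels 10.6 times as high at high humidity and 35.5 times as high at low humidity. On the log2 scale of the fitted model these differences were 3.45 ± 0.30 (SE) and 5.11 ± 0.33. On log2(TPM + 1) values they were 2.63 at high and 3.87 at low humidity. Without col0 low replicate 1 the fitted difference at low humidity was 5.62. The wild-type side rested on 9 to 48 reads per library. Its share of the summed BIP level, on the length-scaled TPM values, was 1.73% ± 0.35 in pip2 at high humidity and 3.25% ± 0.20 in pip2 at low humidity, against 0.152% ± 0.076 in col0 at high humidity and 0.0787% ± 0.0401 in col0 at low humidity (SD, n = 3 each).

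BIP1 and BIP2 supplied nearly all of the BIP transcripts in both genotypes and did not share the pattern of BIP3. BIP1 had 680.1, 554 and 599 CPM in pip2 at high humidity, against 725, 622 and 626 CPM in col0 at high humidity, and these groups overlapped. At low humidity BIP1 had 618, 641 and 588 CPM in pip2, against 775, 701 and 785 CPM in col0, so every mutant library was below every wild-type library. BIP2 had 657, 500.0 and 559 CPM in pip2 at high humidity, against 624, 538 and 545 CPM in col0 at high humidity. At low humidity it had 596, 588 and 563 CPM in pip2, against 722, 633 and 721 CPM in col0. The BIP2 groups overlapped at high humidity and lay apart at low humidity, with pip2 lower. The coding sequences of BIP1 and BIP2 are 96.8% identical with a longest identical run of 323 bases, so the split of reads between them is uncertain. BIP3 is 73.3% identical to BIP1 with a longest identical run of 20 bases.

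ATERDJ3A and CNX1, both folding helpers of the ER, went different ways. ATERDJ3A is a J-domain protein that stimulates BiP, and it had 94.9, 81.3 and 96.8 CPM in pip2 at high humidity, against 44.7, 41.5 and 35.6 CPM in col0 at high humidity. In pip2 at low humidity it had 79.9, 74.1 and 71.2 CPM, against 33.8, 30.3 and 33.5 CPM in col0. Its mutant levels were 2.24 times the wild-type level at high humidity and 2.31 times at low humidity, with no overlap. CNX1 encodes calnexin, a membrane lectin that holds glycoproteins while they fold. CNX1 had 499.6, 430.4 and 461 CPM in pip2 at high humidity, against 551, 498 and 485 CPM in col0 at high humidity, with overlapping groups. At low humidity CNX1 had 461, 489 and 435 CPM in pip2, against 583, 553 and 609 CPM in col0, and pip2 was lower in all 3 libraries.

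Both disulfide-forming genes had higher levels in the mutant. ERO1 encodes the oxidase that recharges protein disulfide isomerases. It had 50.01, 41.8 and 49.3 CPM in pip2 at high humidity, against 26.2, 27.2 and 27.4 CPM in col0 at high humidity. ERO1 at low humidity had 55.7, 56.3 and 49.0 CPM in pip2, against 30.1, 22.9 and 31.8 CPM in col0. The mutant mean was 1.75 times the wild-type mean at high humidity and 1.90 times at low humidity. PDIL2-3 is a protein disulfide isomerase gene, with 224, 199.9 and 226 CPM in pip2 at high humidity, against 145, 133 and 127 CPM in col0 at high humidity. At low humidity PDIL2-3 had 219, 211 and 193 CPM in pip2, against 145, 136 and 143 CPM in col0. Neither gene showed any overlap between genotypes at either humidity.

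BZIP60, the transcription factor of the IRE1 branch, had 53.3, 57.7 and 57.0 CPM in pip2 at high humidity, against 37.5, 41.1 and 40.5 CPM in col0 at high humidity. Its values at low humidity were 72.7, 71.6 and 62.6 CPM in pip2, against 37.3, 43.2 and 41.1 CPM in col0. The mutant mean was 1.41 times the wild-type mean at high humidity and 1.70 times at low humidity, and the genotypes did not overlap. Gene-level counts do not separate the spliced from the unspliced BZIP60 transcript.

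The COPII coat genes held the most extreme contrast. AT1G18830 is annotated as a WD40-repeat protein with SEC31A as a synonym, and SEC31 forms the outer layer of the COPII coat. It had 47.9, 48.7 and 59.2 CPM in pip2 at high humidity, against 0.365, 0.366 and 0.380 CPM in col0 at high humidity. At low humidity it had 72.1, 66.97 and 60.8 CPM in pip2, against 0.489, 0.285 and 0.49998 CPM in col0. In reads, this was 858 to 1461 per mutant library against 5 to 11 per wild-type library. The mean level in pip2 was 140 times that in col0 at high humidity and 157 times at low humidity, or 7.10 ± 0.15 and 7.25 ± 0.15 on the log2 scale (SE). AT1G18830 passed the filter on low counts only through the mutant, since none of its wild-type libraries reached the cutoff of 0.506 CPM. The fold depends on those few reads: on log2(TPM + 1) values the differences were 4.07 at high humidity and 4.43 at low humidity.

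The second SEC31 gene, AT3G63460, is 79.4% identical to AT1G18830 in its aligned coding sequence and showed no such contrast. In TPM, AT3G63460 averaged 50.9 ± 3.6 in pip2 and 52.8 ± 2.8 in col0 at high humidity, and 57.4 ± 2.7 in pip2 and 62.3 ± 5.9 in col0 at low humidity (SD, n = 3 each). AT1G18830 averaged 18.1 ± 2.3 TPM in pip2 and 0.133 ± 0.005 TPM in col0 at high humidity, and 23.7 ± 2.5 TPM in pip2 and 0.146 ± 0.041 TPM in col0 at low humidity.

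SARA1A encodes a small GTPase of the SAR1 family, which starts COPII coat assembly. SARA1A had 5.92, 7.53 and 7.70 CPM in pip2 at high humidity, against 3.81, 3.29 and 3.52 CPM in col0 at high humidity. Its values at low humidity were 11.6, 11.5 and 10.6 CPM in pip2, against 2.79, 3.60 and 3.55 CPM in col0. The mutant mean was 1.99 times the wild-type mean at high humidity and 3.39 times at low humidity, again with no overlap. SAR1B, the closest relative examined at 86.1% coding identity, averaged 128 ± 9 TPM in pip2 and 127 ± 6 TPM in col0 at high humidity, and 156 ± 6 TPM in pip2 and 156 ± 5 TPM in col0 at low humidity. SARA1A was therefore a minor SAR1 transcript in every group, at 23.1 ± 1.6 TPM in its highest group, pip2 at low humidity.

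**Figure D1:**
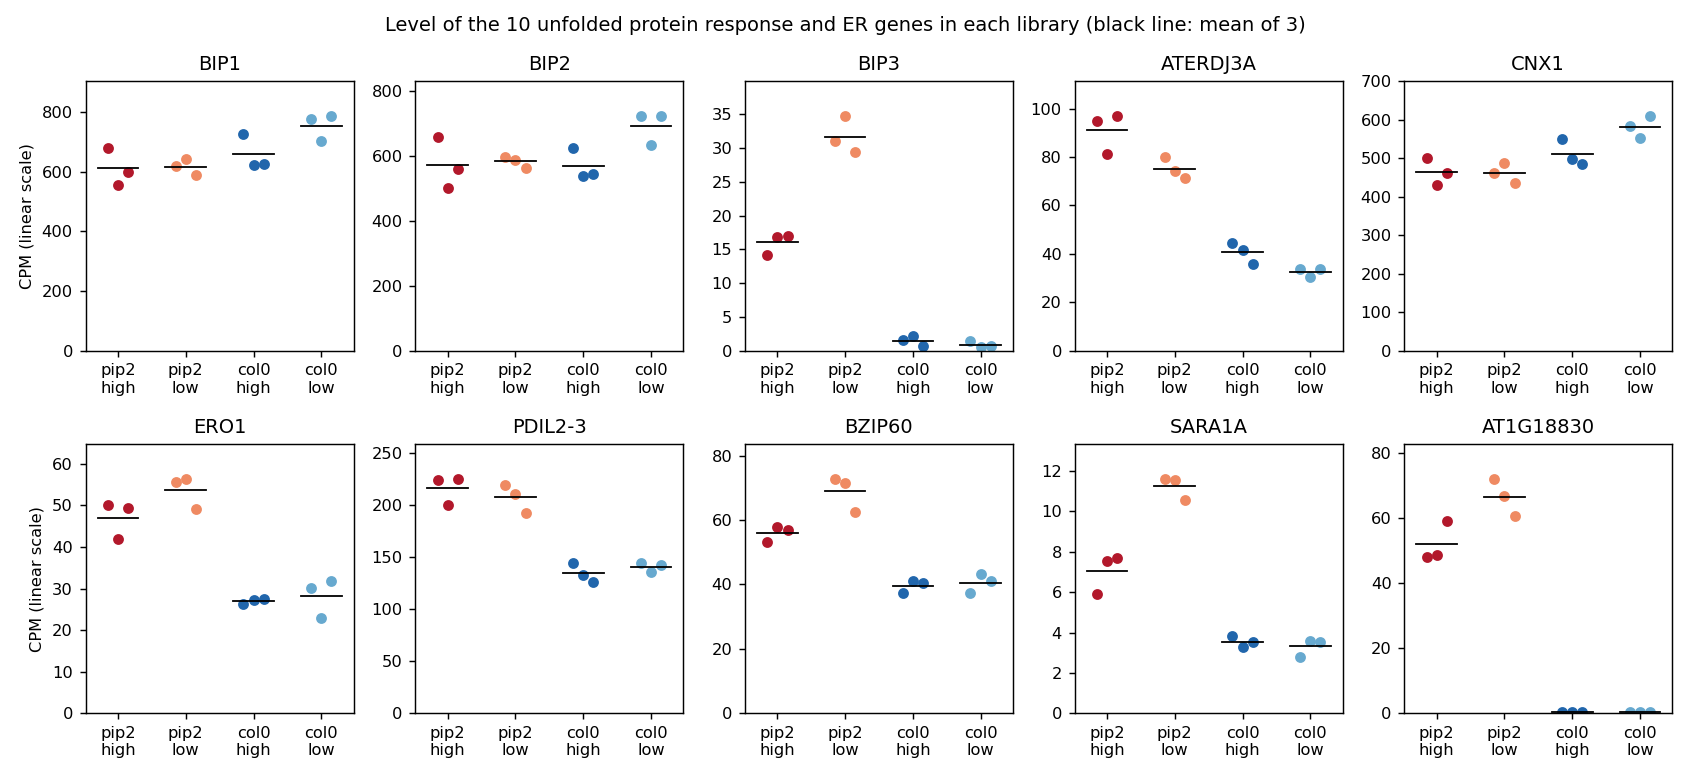
CPM of each of the 10 genes (linear axis, scaled per gene) in the 3 libraries of pip2 high, pip2 low, col0 high and col0 low humidity; points are libraries and black lines are means. The mutant libraries of BIP3, ATERDJ3A, ERO1, PDIL2-3, BZIP60, SARA1A and AT1G18830 sit above all wild-type libraries of the same humidity, while BIP1, BIP2 and CNX1 overlap at high humidity and are lower in pip2 at low humidity.

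Counted together, 7 of the 10 genes were higher in every pip2 library than in every col0 library at high humidity, where 7.29% of the 21897 tested genes did so. At low humidity 7 were higher and 3 were lower without overlap, where 8.48% of tested genes were higher and 11.2% lower. The same 7 were higher without overlap at both humidities, which held for 266 tested genes (1.21%). Because the genes were picked on this contrast, nothing is read from these shares. In these whole-tissue samples, a change in the number of cells of a type and a change in RNA per cell cannot be told apart.

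Levels per length set the genes in a similar order in every group. BIP1, BIP2 and CNX1 led, at 336 ± 41, 322 ± 49 and 307 ± 28 TPM in pip2 at high humidity and at 415 ± 33, 390.1 ± 37.5 and 387 ± 25 TPM in col0 at low humidity (SD, n = 3). Neighbours among these 3 overlapped in all 4 groups. PDIL2-3, BZIP60 and ATERDJ3A followed, and ATERDJ3A overlapped with ERO1 in col0 at low humidity. At the low end of pip2 at low humidity, AT1G18830 at 23.7 ± 2.5 TPM, SARA1A at 23.1 ± 1.6 TPM and BIP3 at 22.8 ± 1.8 TPM overlapped with their neighbours in the order. In col0 at low humidity the same genes were spread over 6.66 ± 0.81 TPM for SARA1A, 0.648 ± 0.371 TPM for BIP3 and 0.146 ± 0.041 TPM for AT1G18830, with no overlap between them. The summed level of the 10 genes was 1275 ± 131 TPM in pip2 and 1201 ± 69 TPM in col0 at high humidity, and 1337 ± 78 TPM in pip2 and 1361 ± 103 TPM in col0 at low humidity.

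In the mutant, 4 of the 10 genes fell and 1 rose at high humidity. Under edgeR's quasi-likelihood test with Benjamini-Hochberg adjustment over all tested genes, 12.3% of genes rose and 11.9% fell in this comparison at an adjusted p under 0.05. BIP3 fell by 0.98 ± 0.24 on the log2 scale (SE, edgeR adjusted p = 0.0117), to a mean of 16.05 CPM at high humidity, against 31.7 CPM at low humidity. SARA1A fell by 0.67 ± 0.15 (edgeR adjusted p = 0.00289), with 7.05 CPM at high and 11.2 CPM at low humidity. AT1G18830 fell by 0.36 ± 0.09 (edgeR adjusted p = 0.0066) and BZIP60 fell by 0.30 ± 0.07 (edgeR adjusted p = 0.0057). For these 4 genes every high-humidity library of pip2 lay below every low-humidity library, as did those of 18.5% of all tested genes. ATERDJ3A rose by 0.28 ± 0.08 (edgeR adjusted p = 0.0241), and its high-humidity libraries all lay above, as did those of 19.6% of all tested genes. BIP1, BIP2, CNX1, ERO1 and PDIL2-3 did not pass, with log2 differences between -0.19 for ERO1 and 0.06 for PDIL2-3. The call on ATERDJ3A was lost without pip2 high replicate 1 (0.24, edgeR adjusted p = 0.0834), pip2 high replicate 3 (0.23, adjusted p = 0.102), pip2 low replicate 2 (0.27, adjusted p = 0.0731) or pip2 low replicate 3 (0.24, adjusted p = 0.101). On log2(TPM + 0.1) values with limma the calls on BIP3 (adjusted p = 0.0538), AT1G18830 (adjusted p = 0.153) and ATERDJ3A (adjusted p = 0.0980) were lost too.

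In the wild type, 1 of the 10 genes rose and 1 fell at high humidity, where 14.3% of all tested genes rose and 15.9% fell. ATERDJ3A rose by 0.31 ± 0.09 on the log2 scale (SE, edgeR adjusted p = 0.0129), with 40.6 CPM at high and 32.5 CPM at low humidity. BIP2 fell by 0.28 ± 0.09 (edgeR adjusted p = 0.0260), with 569 CPM at high and 692 CPM at low humidity. BIP1 and CNX1 differed by -0.20 ± 0.08 (edgeR adjusted p = 0.0834) and -0.19 ± 0.07 (edgeR adjusted p = 0.0648). The replicate number was also fitted as a block, read here as pairing these groups. With it BIP1 and CNX1 passed as well, at edgeR adjusted p = 0.0308 for BIP1 and 0.0363 for CNX1. BIP3 differed by 0.68 ± 0.42 (edgeR adjusted p = 0.258) in the opposite direction from pip2, on few reads. SARA1A (0.10 ± 0.16), BZIP60 (-0.03 ± 0.07) and AT1G18830 (-0.21 ± 0.32) did not pass. At 5 to 11 reads per col0 library, a humidity response of AT1G18830 in col0 was hardly detectable at this depth.

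Several wild-type calls turned on 1 library or on the tool. ATERDJ3A was lost without col0 high replicate 1 (0.24, edgeR adjusted p = 0.0657) or col0 low replicate 2 (0.26, adjusted p = 0.0575). BIP2 was lost without col0 high replicate 2 or 3 or col0 low replicate 1 or 3, at edgeR adjusted p between 0.0881 and 0.129, and with limma on TPM values at adjusted p between 0.0720 and 0.0774. Summing the reads of BIP1 and BIP2, an alternative chosen after seeing the data, gave -0.24 (edgeR adjusted p = 0.0523). Without col0 high replicate 1, BIP1 (-0.27, edgeR adjusted p = 0.0300) and CNX1 (-0.24, adjusted p = 0.0336) passed, and CNX1 also passed with DESeq2 (-0.18, adjusted p = 0.0388). Without col0 high replicate 3, BIP3 passed at 1.07 (edgeR adjusted p = 0.0181).

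Whether the humidity response differed between genotypes was tested as an interaction, which 0.443% of all tested genes passed. Over all 21897 tested genes, 1616 had an unadjusted edgeR p under 0.05 for it. None of the 10 genes passed under edgeR or under DESeq2, and 3 had an unadjusted p under 0.05. These were BIP3 (-1.66 ± 0.48, unadjusted p = 0.00546, edgeR adjusted p = 0.316), SARA1A (-0.77 ± 0.22, unadjusted p = 0.00284, edgeR adjusted p = 0.237) and BZIP60 (-0.27 ± 0.10, unadjusted p = 0.0183, edgeR adjusted p = 0.504). Without col0 high replicate 3 the interaction of BIP3 was -2.05 and passed (edgeR adjusted p = 0.0180). With all libraries, the humidity responses of pip2 and col0 were not shown to differ.

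**Figure D2:**
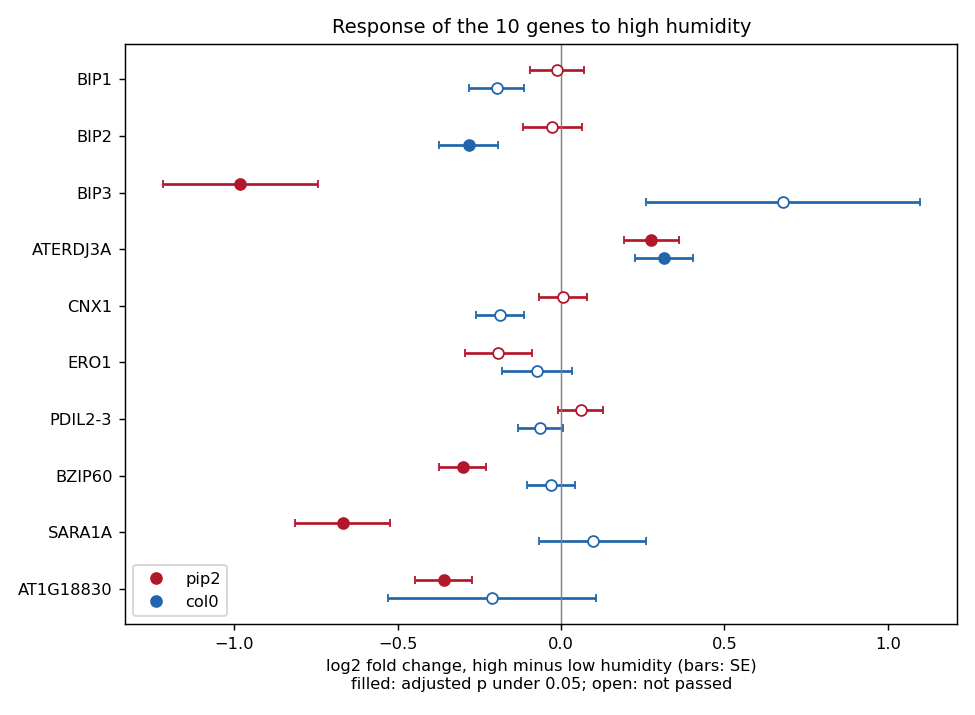
Log2 fold change, high minus low humidity, of each of the 10 genes in pip2 (red, upper of each pair) and col0 (blue, lower); bars are SE and filled points have an adjusted p under 0.05. BIP3, BZIP60, SARA1A and AT1G18830 are filled and left of zero in pip2, ATERDJ3A is filled and right of zero in both genotypes, and BIP2 is filled and left of zero in col0.

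Marker lists of other tissues were read beside the humidity comparisons. The summed level of 9 tapetum and anther markers was 3252 to 3745 CPM at high and 2496 to 3128 CPM at low humidity in pip2, and 2820 to 3503 CPM at high and 2025 to 2834 CPM at low humidity in col0. In 5 leaf photosynthetic genes the sum was 13110 to 13984 CPM at high and 9743 to 12067 CPM at low humidity in pip2, and 13409 to 14018 CPM at high and 10860 to 12163 CPM at low humidity in col0. The sum of 4 vascular markers was 165 to 205 CPM at high and 165 to 178 CPM at low humidity in pip2, and 203 to 225 CPM at high and 160.0 to 183 CPM at low humidity in col0. The sums of high and low humidity overlapped for the vascular list in pip2 and for the tapetum list in col0, and lay apart, higher at high humidity, for the other sums given here. None of the defining markers was at 0 in all libraries of a group, and their part in the humidity results was not tested. For pip2 against col0, the tapetum, leaf and vascular sums overlapped at both humidities, while the meristem and young flower sum was higher in pip2 at low humidity without overlap (345 to 362 CPM in pip2, 311 to 334 CPM in col0). Its part in the differences between pip2 and col0 was not tested.

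Beyond the 10, a list of 76 other ER genes was read in the same comparisons. It was taken from textbook membership, with earlier results of these data known. The list leaves out the 10, several of them picked as higher in the mutant. Its counts between genotypes are therefore partly set by that choice and do not describe the whole pathway. Between genotypes, 3 of the 76 passed at high and 5 at low humidity, beside 129 and 652 of all 21897 tested genes. These were larger shares of the 76 than of all tested genes, on few genes. At high humidity 2 were higher and 1 lower in pip2, where 0.201% of all tested genes rose and 0.388% fell. At low humidity 4 were higher and 1 lower in pip2, where 0.900% rose and 2.08% fell. The median log2 difference of the 76 was 0.02 at high and -0.003 at low humidity, beside 0.007 and -0.003 over all tested genes. The replicate block was read as pairing the groups at low humidity. With it, 7 of the 76 passed there in place of 5, and 1085 genes in all in place of 652. Without pip2 low replicate 1 that count was 390 and without col0 low replicate 1 it was 427. Without pip2 high replicate 3 the count at high humidity was 78 in place of 129.

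The genes that rose work in disulfide formation, translocation and ER stress survival. PDIL1-2 had 109, 94.4 and 104 CPM in pip2, against 83.3, 69.8 and 70.6 CPM in col0 at high humidity, and 126, 119 and 112 CPM in pip2, against 84.7, 73.4 and 82.9 CPM in col0 at low humidity. It rose by 0.46 ± 0.08 at high humidity (log2, SE, edgeR adjusted p = 0.00691) and by 0.56 ± 0.08 at low humidity (edgeR adjusted p = 0.000323). AT1G29310, a SecY-type channel subunit, rose by 0.46 ± 0.08 at high humidity (edgeR adjusted p = 0.00742) and by 0.41 ± 0.08 at low humidity (edgeR adjusted p = 0.00543). At high humidity both calls were lost without col0 high replicate 2 (edgeR adjusted p = 0.0715 for PDIL1-2 and 0.0611 for AT1G29310) or col0 high replicate 3 (adjusted p = 0.0609 for both), and AT1G29310 also without pip2 high replicate 3 (adjusted p = 0.0628). With limma on log2(TPM + 1) values both were lost at high humidity as well (adjusted p = 0.0827 for PDIL1-2 and 0.0823 for AT1G29310). AT1G29310 is 88.7% identical in coding sequence to AT2G34250, with a longest identical run of 53 bases. AT2G34250 averaged 296 ± 21 CPM in pip2 and 288 ± 10 CPM in col0 at high humidity (SD, n = 3 each). At low humidity it averaged 328 ± 8 CPM in pip2 and 356 ± 13 CPM in col0.

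AT3G60540 had 11.1, 9.92 and 8.61 CPM in pip2, against 5.62, 4.62 and 6.25 CPM in col0 at low humidity, and rose by 0.84 ± 0.16 (log2, SE, edgeR adjusted p = 0.00614). At high humidity its difference was 0.51 ± 0.16 (edgeR adjusted p = 0.260). BI1, an inhibitor of ER stress-induced cell death, had 122, 132 and 114 CPM in pip2, against 85.2, 92.3 and 94.0 CPM in col0 at low humidity, and rose by 0.44 ± 0.06 (edgeR adjusted p = 0.000515). Its difference at high humidity was 0.19 ± 0.06 (edgeR adjusted p = 0.343).

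Hrd1B, a ubiquitin ligase gene of ER-associated degradation, was the gene of the list that fell. It had 93.4, 98.8 and 89.0 CPM in pip2, against 288, 313 and 298 CPM in col0 at high humidity. At low humidity it had 90.8, 77.1 and 82.8 CPM in pip2, against 219, 241 and 227 CPM in col0. Hrd1B fell by 1.68 ± 0.07 on the log2 scale at high humidity (SE, edgeR adjusted p = 3.61e-11) and by 1.45 ± 0.07 at low humidity (edgeR adjusted p = 2.16e-10). Among the 10 sensors and transcription factors beside BZIP60, the smallest p between genotypes was that of BZIP17 at high humidity (-0.13 ± 0.06, edgeR adjusted p = 0.543) and that of NAC062 at low humidity (0.23 ± 0.07, edgeR adjusted p = 0.0827). NAC103, a target of bZIP60, differed by -0.07 ± 0.19 at high humidity (edgeR adjusted p = 0.953) and by 0.59 ± 0.19 at low humidity (edgeR adjusted p = 0.124, and 0.0471 without pip2 high replicate 2).

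**Figure D3:**
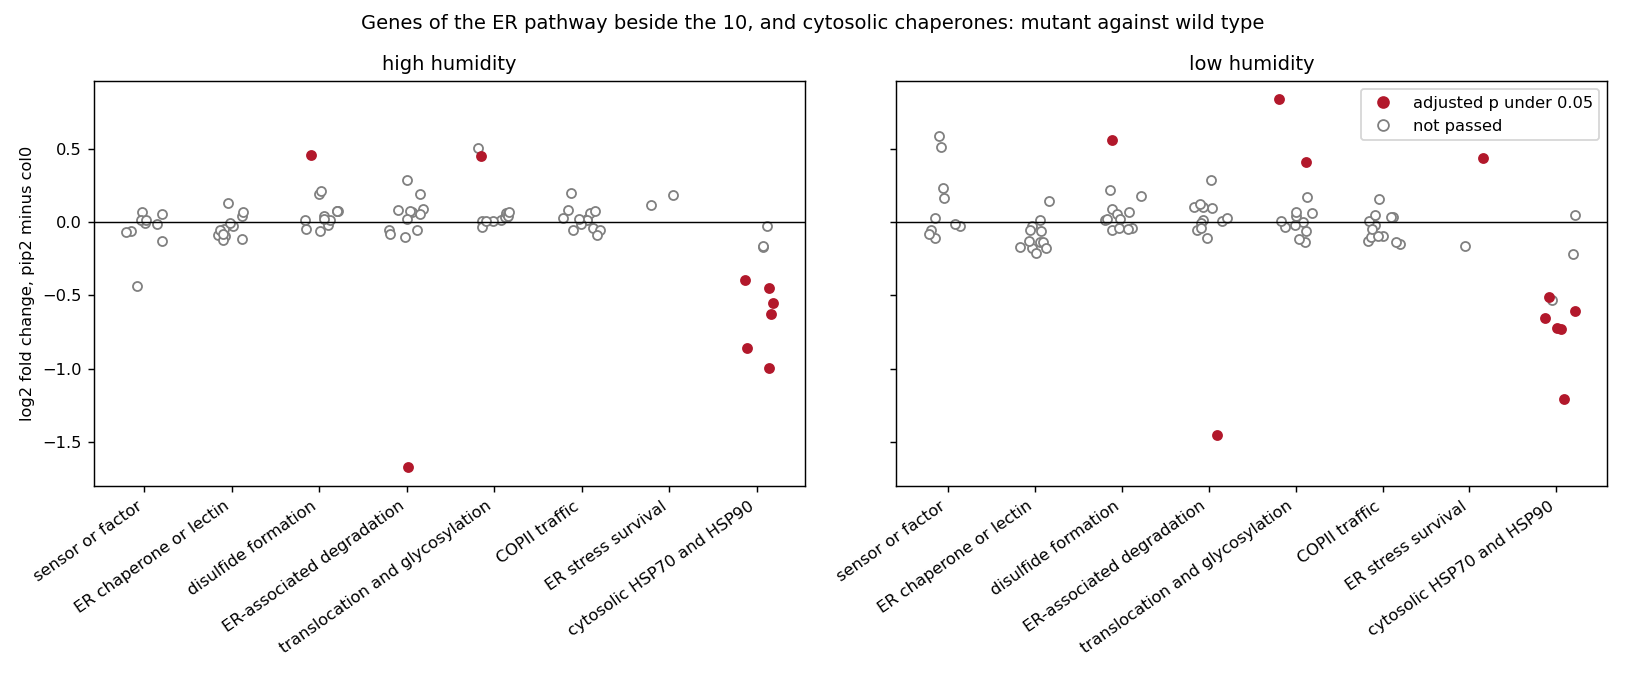
Log2 fold change, pip2 minus col0, of 76 other ER genes in 7 classes and of 9 cytosolic HSP70 and HSP90 genes, at high humidity (left) and low humidity (right); red points have an adjusted p under 0.05. Most ER genes lie near zero, Hrd1B is the lowest point at both humidities, and 6 cytosolic genes are red and below zero in each panel, a count that at high humidity is 0 without any 1 of 3 libraries.

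Cytosolic chaperones of the HSP70 family, to which the BIP proteins belong, and of the HSP90 family were read as a comparison list. Of 9 such genes, 6 were lower in pip2 than in col0 at each humidity (edgeR, adjusted p under 0.05). Over all tested genes, 0.388% were lower at high and 2.08% at low humidity. The median log2 difference of the 9, pip2 minus col0, was -0.45 at high and -0.60 at low humidity. The heat-inducible gene HSP70 (AT3G12580) was lower in pip2 by 0.995 ± 0.152 at high humidity (log2, SE, edgeR adjusted p = 0.0178) and by 1.21 ± 0.17 at low humidity (edgeR adjusted p = 0.00267). At low humidity 6 or 7 were lower in pip2 under every setting tried. At high humidity the count was 0 without pip2 high replicate 2, pip2 high replicate 3 or col0 high replicate 1, 1 without pip2 low replicate 1 and 3 without pip2 low replicate 3, and it was 1 when only the groups compared were fitted. With limma it was 3 on log2(TPM + 1), 2 on log2(TPM + 0.1) and 2 on log2(TPM + 1) without a filter. HSP70 itself was lost at high humidity without the first 3 of these libraries, at edgeR adjusted p between 0.0547 and 0.0863, and when only the groups compared were fitted (adjusted p = 0.0973). In response to humidity, 3 of the 9 rose and 1 fell in pip2, and 2 rose and 1 fell in col0. Over all tested genes 12.3% rose and 11.9% fell in pip2, and 14.3% rose and 15.9% fell in col0. HSP70 rose by 2.91 ± 0.17 in pip2 and by 2.69 ± 0.16 in col0 (edgeR adjusted p = 1.17e-06 and 1.60e-06), while BIP3 fell in pip2. The gene of the 9 that fell in col0 was Hsp81.4 (-0.45 ± 0.08, edgeR adjusted p = 0.000623).

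More of the 76 ER genes passed the test for humidity than for genotype, as was also so over all tested genes. In pip2, 10 rose and 18 fell at high humidity, and in col0, 9 rose and 25 fell, with median log2 differences of -0.09 and -0.05 beside 0.01 and -0.00006 over all tested genes. Of all tested genes, 12.3% rose and 11.9% fell in pip2, and 14.3% rose and 15.9% fell in col0. The share called, 28 of 76 in pip2 and 34 of 76 in col0, stands beside 24.2% and 30.2% of all tested genes. Without pip2 low replicate 2, 17 were called in pip2. None of the 76 passed the interaction under edgeR or DESeq2. An unadjusted edgeR p under 0.05 was reached by 4 of the 76, beside 1616 of all 21897 tested genes.

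Degradation genes were among those that rose. In ER-associated degradation, 6 of 13 rose in each genotype (edgeR, adjusted p under 0.05), beside 12.3% of all tested genes in pip2 and 14.3% in col0. DER2.1, a derlin of the retrotranslocation machinery, had 63.1, 56.9 and 57.6 CPM at high and 40.7, 39.1 and 42.6 CPM at low humidity in pip2, and it had 55.4, 58.6 and 54.4 CPM at high and 40.7, 41.9 and 44.3 CPM at low humidity in col0. It rose by 0.54 ± 0.06 in pip2 (log2, SE, edgeR adjusted p = 1.2e-05) and by 0.41 ± 0.06 in col0 (edgeR adjusted p = 0.000147). Among the sensors, BZIP28 rose by 0.30 ± 0.06 in pip2 (edgeR adjusted p = 0.00225) and by 0.25 ± 0.06 in col0 (edgeR adjusted p = 0.00607). IRE1A, the gene of an RNase that splices BZIP60, rose by 0.28 ± 0.07 in pip2 (edgeR adjusted p = 0.00526) and by 0.23 ± 0.07 in col0 (edgeR adjusted p = 0.0128). NAC103 fell by 0.80 ± 0.19 in pip2 (edgeR adjusted p = 0.00537) and differed by -0.14 ± 0.19 in col0 (edgeR adjusted p = 0.624).

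Folding, translocation and coat genes were among those that fell. In translocation and glycosylation, 6 of 13 fell in pip2 and 8 of 13 in col0 (edgeR, adjusted p under 0.05), and over all tested genes 11.9% fell in pip2 and 15.9% in col0. SEC61 BETA (AT2G45070), a subunit of the protein channel, fell by 0.32 ± 0.07 in pip2 (log2, SE, edgeR adjusted p = 0.00232) and by 0.38 ± 0.07 in col0 (edgeR adjusted p = 0.000465). STT3B, a catalytic subunit of the oligosaccharyltransferase, fell by 0.24 ± 0.06 in pip2 (edgeR adjusted p = 0.00864) and by 0.39 ± 0.06 in col0 (edgeR adjusted p = 0.000140). In the COPII class 3 of 13 fell in pip2 and 7 of 13 in col0. SAR1B, the abundant relative of SARA1A, fell by 0.26 ± 0.06 in pip2 (edgeR adjusted p = 0.00656) and by 0.31 ± 0.06 in col0 (edgeR adjusted p = 0.00163). Of 12 ER chaperones and lectins, 3 fell in pip2 and 4 in col0. Of 13 disulfide-forming genes, 5 fell and 1 rose in each genotype.

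**Figure D4:**
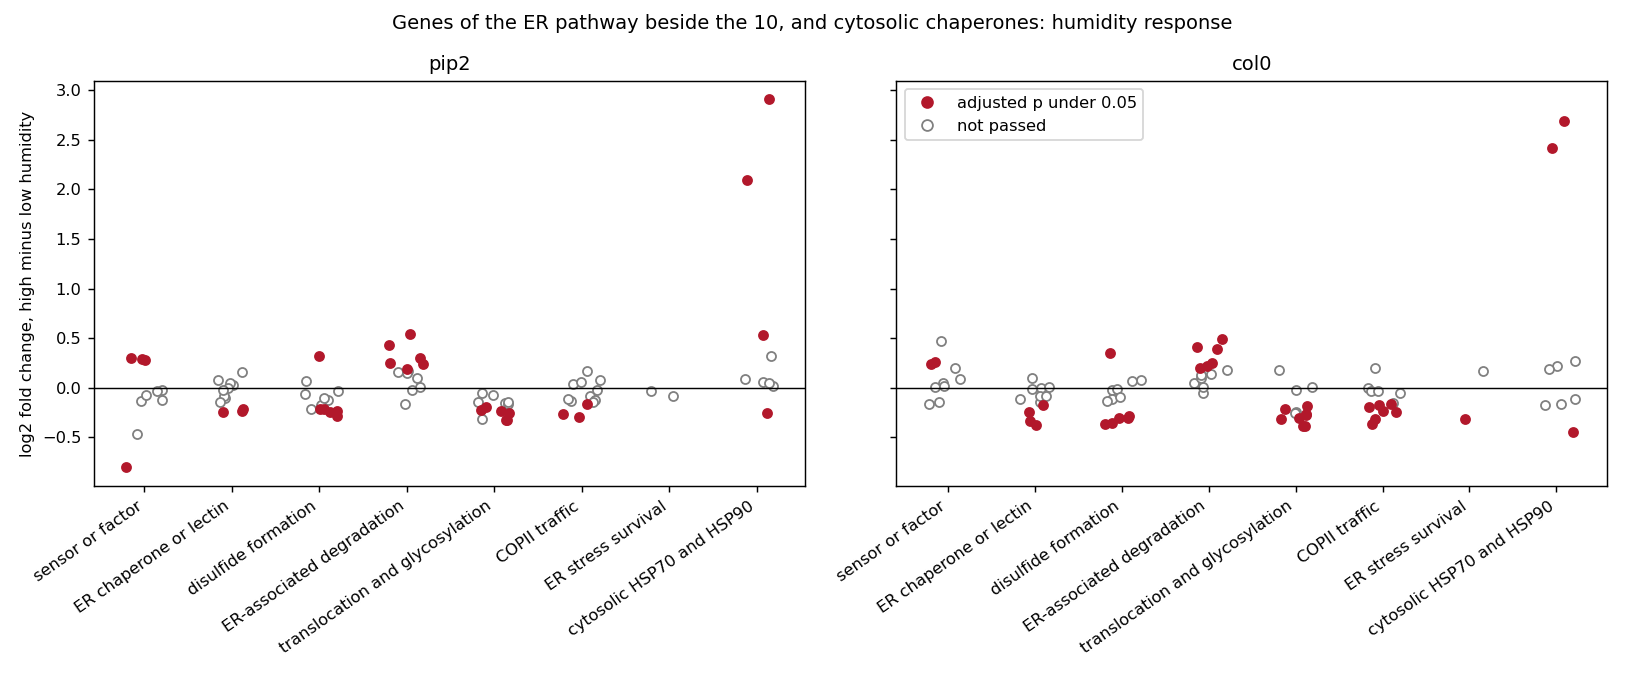
Log2 fold change, high minus low humidity, of the 76 other ER genes by class and of 9 cytosolic HSP70 and HSP90 genes, in pip2 (left) and col0 (right); red points have an adjusted p under 0.05. Degradation genes include 6 red points above zero in each panel, and the red translocation genes lie below zero.

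Across the 12 libraries, the mean standardised profile of the 10 genes was set against the other tested genes. The highest Pearson correlations were those of PDIL1-2 (0.976), AT1G29310 (0.962), AT2G05914 (0.937), AT3G15980 (0.934) and HEI10 (0.907). AT2G05914 is annotated as another RNA, AT3G15980 as a coatomer beta' subunit, and HEI10 encodes a meiotic crossover protein. AT3G15980 averaged 167 ± 8 CPM in pip2 and 108 ± 4 CPM in col0 at high humidity, and 231 ± 14 CPM in pip2 and 126 ± 12 CPM in col0 at low humidity (SD, n = 3 each). The 10 genes are themselves part of this mean, and the 7 higher in pip2 make up most of it, so nothing is read from their own correlations with it. These libraries share genotype and humidity groups, so the correlations describe group patterns.

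Chromosomal position was shared by a pair of the genes. BIP3 (chr1:2929217-2931850) and SARA1A (chr1:2965023-2965972) lie on chromosome 1 of TAIR10.1 with 9 genes of the count table between them. Over all 21897 tested genes, 129 passed between genotypes at high and 652 at low humidity. Of 55 tested genes nearest to the 10, 1 passed at each humidity. It was AT5G42050, a gene for a DCD domain protein near BIP2 and named after its values were seen, with log2 differences of 0.50 at high (edgeR adjusted p = 0.00865) and 0.85 at low humidity (edgeR adjusted p = 1.64e-05).

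The promoters differed in the motifs they hold. Windows of 350 bases, 300 before the annotated start and 50 after it, of 9 of the 10 genes were searched on both strands for ERSE (CCAAT, any 10 bases, CACG), ERSE-II (ATTGG, any 1 base, CCACG) and UPRE (TGACGTG). BIP3 held 2 ERSE matches, at positions -174 to -156 and -96 to -78 from the start at position 1. CNX1 held an ERSE match, CGTGGCCTGTTATGATTGG, on the other strand just after its start, overlapping a UPRE match. BIP2 held the set's ERSE-II match, ATTGGTCCACG, overlapping a UPRE match. UPRE also matched at -111 to -105 in AT1G18830, as the capitals in the printed sequence show. The letters of the 3 motifs were not found in the windows of BIP1, ATERDJ3A, PDIL2-3, BZIP60 and SARA1A.

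ERSE was held by 2 of these 9 genes, by 15 of the 76 other ER genes (19.7%) and by 241 of 23263 protein-coding genes of the count table (1.04%). UPRE was held by 3 of the 9, by 14 of the 76 (18.4%) and by 3.87% of all, and ERSE-II by 1 of the 9 and by 0.0817% of all. Each of the 5 ER genes called between genotypes, PDIL1-2, AT1G29310, AT3G60540, BI1 and Hrd1B, held an ERSE match, the last of them while falling. The other ERSE holders among the 76 were not called, and CNX1, which also held a match, was not higher in pip2. Of the tested genes with ERSE outside the 10 and the 76, 6 of 219 rose in pip2 at low humidity (2.74%) and 5 fell (2.28%), beside 0.871% and 2.1% of 20655 tested genes without it. At high humidity 4 of the 219 rose (1.83%) and 1 fell (0.457%), beside 0.155% and 0.373% of those without it. For UPRE outside the lists, 13 of 820 rose at low humidity (1.59%) and 17 fell (2.07%), beside 0.883% and 2.11% without it. At high humidity 3 of the 820 rose and 3 fell (0.366% each), beside 0.175% and 0.379% without UPRE. None of 17 such genes with ERSE-II was called at either humidity. A match describes letters in a window and does not show a bound site.

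**Figure D5:**
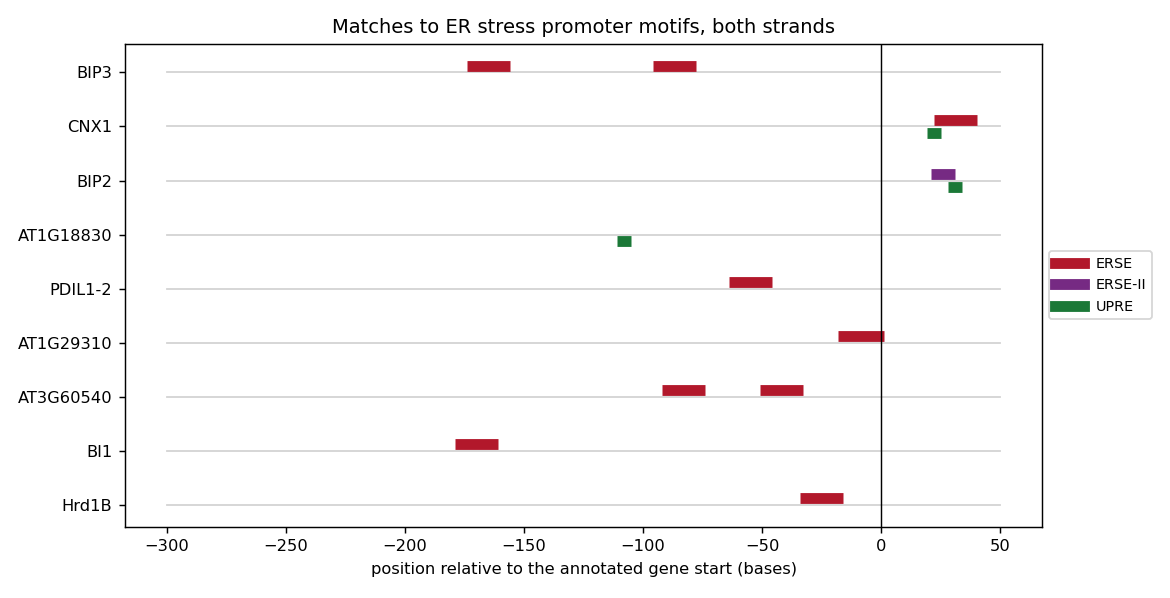
Positions of ERSE (red), ERSE-II (purple) and UPRE (green) matches, in bases from the annotated gene start, in the 4 of 9 genes searched that hold one and in the 5 other ER genes called between pip2 and col0. BIP3 and AT3G60540 each show 2 ERSE matches before the start, and the matches of BIP2 and CNX1 lie after it.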

How the data were processed

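RNA from dissected inflorescence meristems was sequenced in 12 libraries. Per the submitters' processing notes, the tools were Trimmomatic 0.39 for trimming, HISAT2 2.2.1 for alignment and featureCounts 2.0.6 for counting, with TAIR10 as the build; strand and multi-mapping settings are not given in the sources used here. The authors deposited whole-number counts per gene, not normalized, and a TPM table; TPM is missing for 2537 genes, and each gene listed has at least 1 count in col0 low replicate 1. Groups came from the sample titles. The 10 genes and all lists were chosen with earlier results of these data known.

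Counts were filtered with filterByExpr (minimum count 10), leaving 21897 genes and all 10 members, scaled by TMM and tested with the quasi-likelihood test of edgeR 4.0.16 (R 4.3.3) over all 12 libraries. Tests were two-sided, with Benjamini-Hochberg adjustment and a threshold of 0.05. CPM uses the TMM-scaled library total. The fits were also run on simulated counts drawn independently for each library. Those counts hold no pairing of libraries, so that run does not bear on the pairing described below. Named genes were the 10, PIP2;5, up to 3 called genes with the smallest adjusted p per class of the wider list, the 5 genes most correlated with the mean profile, and called neighbours. Alternatives were RLE scaling, DESeq2 1.42.0, no filter, only the groups compared, a replicate block, single libraries left out and limma 3.58.1 on log2(TPM + 1) and log2(TPM + 0.1). Deviations of same-numbered libraries from their group means correlated at over 0.1 in every pair for humidity in col0 and for genotype at low humidity. The numbers were therefore read as pairing those groups, although the sample titles do not state a pairing. The correlations were -0.009, 0.22 and 0.24 for genotype at high humidity, and -0.03, 0.21 and 0.05 for humidity in pip2. Of the 12 libraries, 11 had their best match in another group at the same number. The main fit leaves this pairing out, and the block was fitted over all 12 libraries. Of the 10 promoters, 1 is not reported here and was left out of the motif search.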

Additional observations from a re-analysis of the deposited data

How the results depend on the processing

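Counts of called genes moved by over 1.5 times in these cases. Between genotypes at high humidity, 129 genes became 240 with DESeq2 and 314 with the replicate block. At low humidity, 652 became 1085 with the replicate block. For the interaction, 97 became 184 with DESeq2, 197 with the replicate block, 48 with limma on log2(TPM + 1) or log2(TPM + 0.1) and 46 with limma without a filter. Of the 76 other ER genes, 3 called between genotypes at high humidity became 5 with the replicate block and 1 under each limma setting.

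Leaving out 1 library at a time gave 78 to 154 genes between genotypes at high and 390 to 809 at low humidity, 4022 to 5345 for humidity in pip2, 4766 to 6973 for humidity in col0 and 32 to 110 for the interaction. Among the 76 it gave 1 to 3 and 5 to 7 between genotypes at high and low humidity, 17 to 29 and 23 to 35 for humidity in pip2 and col0, and 0 for the interaction each time. The interaction count was 47 and 59 without pip2 low replicates 1 and 3, and between 32 and 62 without each of the 6 col0 libraries. The replicate block changed no call on the 10 genes other than BIP1 and CNX1 in col0. Scaling by RLE shifted the median of all genes by less than 0.01 (log2). No called difference of the 10 genes or of the named ER genes changed sign under these alternatives; the unnamed ER genes were followed by their counts only. At 5 to 11 reads per wild-type library, counting error in col0 limits the fold of AT1G18830. The cause of these changes was not tested.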
